A study of Mus musculus with 6 samples.

Results

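The 8 genes described here mark osteoclast precursors and steps of osteoclast differentiation, and were taken by symbol from the 32285 genes of the feature tables: Tnfrsf11a, Nfatc1, Acp5, Ctsk, Dcstamp, Oscar, Trem2 and Tyrobp. Each symbol matched 1 gene. On mm10, Tnfrsf11a lies at chr1:105780718-105847981, Acp5 at chr9:22126727-22135711, Ctsk at chr3:95499256-95509362, Dcstamp at chr15:39745930-39760938, Oscar at chr7:3609813-3616157, Trem2 at chr17:48346401-48354147 and Tyrobp at chr7:30413760-30417585. Acp5 and Nfatc1 each overlap 1 other annotated gene, so reads in the overlap are uncertain. Osteoclasts are the multinucleated cells that resorb bone, and they form from myeloid precursors of the monocyte lineage. M-CSF, acting through its receptor Csf1r, keeps these precursors alive, and RANKL, acting through RANK, the product of Tnfrsf11a, drives them to differentiate. RANK signalling together with signals from receptors that pair with ITAM adaptors, such as Trem2 with the Tyrobp product DAP12 and Oscar with the Fcer1g product, activates the transcription factor Nfatc1. Nfatc1 in turn is known to raise genes of the mature cell: Acp5, which encodes tartrate-resistant acid phosphatase, Ctsk, which encodes the collagen-degrading protease cathepsin K, and Dcstamp, which encodes a membrane protein needed for fusion.

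Bone marrow was flushed from Femur (the labels name femurs and tibiae, the study's methods femurs alone) and Mandible of C57Bl/6 mice 2 months old, and cells carrying CD11b, the integrin chain encoded by Itgam, were positively selected with magnetic beads and profiled by droplet single-cell RNA sequencing of 3' ends. The design asked how myeloid cells of the jaw differ from those of the long bones, with 3 libraries of each site and no treatment. Femur replicate 1 was female and the other 5 libraries were male, so within Femur sex cannot be told apart from the library. No label says how many animals a library holds, and p-values measure only the spread between libraries.

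The authors kept 69776 of 74091 barcodes, 7763 to 22797 per library, with 82962160 to 244946998 UMIs (unique transcript tags) per library and a median of 6924 to 9158 per cell. Femur replicate 3 had the most cells. Pairs of libraries shared 15 to 70 barcodes, at most 0.651% of the smaller library. Cells lay in 9 clusters (0 to 8), and cluster 5, with 7354 cells, was the cluster the study read as monocytes. A list of 5 monocyte genes summed to a mean of 3800 CPM (UMIs scaled to a common library total) there against 1226 over all cells. Transcripts typical of ameloblasts and odontoblasts, the tooth-forming cells, stood at 16.2 to 1323 CPM in Mandible cluster 5 and at 0.0994 to 0.55 in Femur. In cluster 0, a neutrophil cluster, they stood at 12.7 to 26.5 CPM in Mandible and 0.0109 to 0.0351 in Femur. Among Mandible cluster 5 cells that a reference labelled Monocytes they stood at 11.1 to 20.5 CPM, and among those labelled Neutrophils at 11.9 to 2159. The study detected Amelx, a gene of this group, in mandibular monocytes by qRT-PCR. It found the protein in cultured mandibular osteoclasts but not in osteoclasts of tissue sections. Whether these transcripts were expressed by the cells or were free or admixed RNA, and their part in the results below, was not tested.

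The upstream sequences of Ctsk and Acp5 are shown because these 2 genes had their highest counts in the same few barcodes, described below. They are the 250 bases before the annotated start, from RefSeq on GRCm38.p6, with the NFAT core GGAAA (searched on both strands, so also as TTTCC) in capitals.

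Ctsk, chr3:95498960-95499209, plus strand: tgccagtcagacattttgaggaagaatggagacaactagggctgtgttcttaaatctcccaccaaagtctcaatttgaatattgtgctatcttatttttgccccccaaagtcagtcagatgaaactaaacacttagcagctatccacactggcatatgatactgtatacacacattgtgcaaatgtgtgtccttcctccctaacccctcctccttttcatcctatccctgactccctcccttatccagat

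Acp5, chr9:22135747-22135996, minus strand: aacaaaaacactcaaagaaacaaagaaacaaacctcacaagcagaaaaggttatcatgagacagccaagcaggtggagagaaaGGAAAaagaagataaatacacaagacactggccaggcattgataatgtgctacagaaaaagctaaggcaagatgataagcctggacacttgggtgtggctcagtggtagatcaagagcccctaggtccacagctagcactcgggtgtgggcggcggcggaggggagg

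The Acp5 window held 1 match, 167 bases before the start, and the Ctsk window held 0. The same 5 letters were found in 55.6% of 32851 such windows in the annotation. RefSeq lists 3 starts for Acp5, and the other two windows held 1 and 2 matches. An AP-1 element, searched as TGANTCA, was in none of these 4 windows and in 6.75% of all windows. Reads of 3' ends do not show which start was used, and a match is a description of the letters only.

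The 8 genes fell into groups of very different abundance. Tyrobp had 1446541 UMIs in the kept cells and Nfatc1 49385, whereas Acp5 had 3635, Trem2 3047, Tnfrsf11a 2201 and Ctsk 1145. Oscar had 26 UMIs and Dcstamp 20 in all 69776 cells. Of the cells with a UMI, 69.1% for Tnfrsf11a, 75.0% for Acp5 and 90.9% for Ctsk held a single UMI, so that a cell without a UMI cannot be read as a cell without the transcript.

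RANK and TREM2 transcripts lay in the monocyte cluster. Cluster 5 held 10.5% of the cells but 95.8% of Tnfrsf11a UMIs and 91.6% of Trem2 UMIs. Tnfrsf11a, the RANKL receptor, averaged 24.8 ± 10.3 CPM (SD, n = 6) in cluster 5, and next came cluster 8, in which 5 erythroid markers summed to a mean of 143450 CPM, at 0.96 ± 2.35. The ranges of these neighbours did not overlap, since the lowest library of cluster 5 stood at 15.6 and the highest of cluster 8 at 5.76. Among the cells of cluster 5, 16.0% ± 2.51 (SD, n = 6) had a Tnfrsf11a UMI, against 0.201% ± 0.107 in cluster 0, a neutrophil cluster of similar depth (median 10085 and 11168 UMIs per cell). Trem2, a lipid-sensing receptor, averaged 31.7 ± 3.40 CPM in cluster 5, and no other cluster exceeded 1.73. Its share of positive cells was 22.3% ± 2.61 in cluster 5 and 0.339% ± 0.156 in cluster 0. Clusters were made from the same expression values, so these differences between clusters carry no test.

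Nfatc1 and Tyrobp were found in every cluster. Nfatc1 averaged 135 ± 28.8 CPM in cluster 1, another neutrophil cluster, 83.0 ± 12.4 in cluster 5 and 34.4 ± 25.2 in cluster 8. In the order of its 9 levels the only neighbours without overlap were cluster 0 at 56.3 ± 9.90 and cluster 4, the deepest neutrophil cluster, at 37.4 ± 4.09. Between 39.0% and 51.2% of cells in clusters 0 to 5 had an Nfatc1 UMI on average. Tyrobp, the adaptor of many myeloid receptors, ran from 3620 ± 606 CPM in cluster 1 to 499 ± 165 in cluster 6, B lineage cells, and stood at 2227 ± 187 in cluster 5. Femur replicate 1 had the lowest Tyrobp level of the 6 libraries in 8 of 9 clusters.

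Acp5 had a second site of expression in the B lineage. Its mean was 62.9 ± 18.5 CPM in cluster 6 and 29.3 ± 18.9 in cluster 5, with overlapping ranges. The 6 B cell genes of the marker list summed to 8185 to 17161 CPM in cluster 6 and to 24.5 to 86.2 in cluster 5. Among the 1009 cells of cluster 6 Tnfrsf11a had 0 UMIs, which limits the share of cells with a UMI to 0.297% but not the share expressing the gene, and Trem2 had 2 UMIs. Cluster 5 still held 70.2% of Acp5 UMIs, because cluster 6 held few cells. Among neutrophils, 2.95% ± 0.553 of the deep cells of cluster 4 and 0.327% to 0.615% of cells in clusters 0 to 3 had an Acp5 UMI.

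Ctsk and Oscar were spread over the clusters, and Dcstamp was too rare to place firmly. The Ctsk share of positive cells was 1.25% ± 0.420 in cluster 5 and 0.481% to 0.782% in neutrophil clusters 0 to 4, and the Ctsk ranges of cluster 5, at 1.18 to 17.6 CPM, and of cluster 7, at 0 to 10.5 CPM, overlapped. Cluster 5 held 45.8% of Ctsk UMIs but 16.4% of Ctsk-positive cells. Dcstamp had 14 of its 20 UMIs and 8 of its 13 positive cells in cluster 5. Oscar, the collagen-binding receptor of the ITAM pathway, had 4 of its 26 UMIs in cluster 5 and 6 each in clusters 0 and 4.

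**Figure D1:**
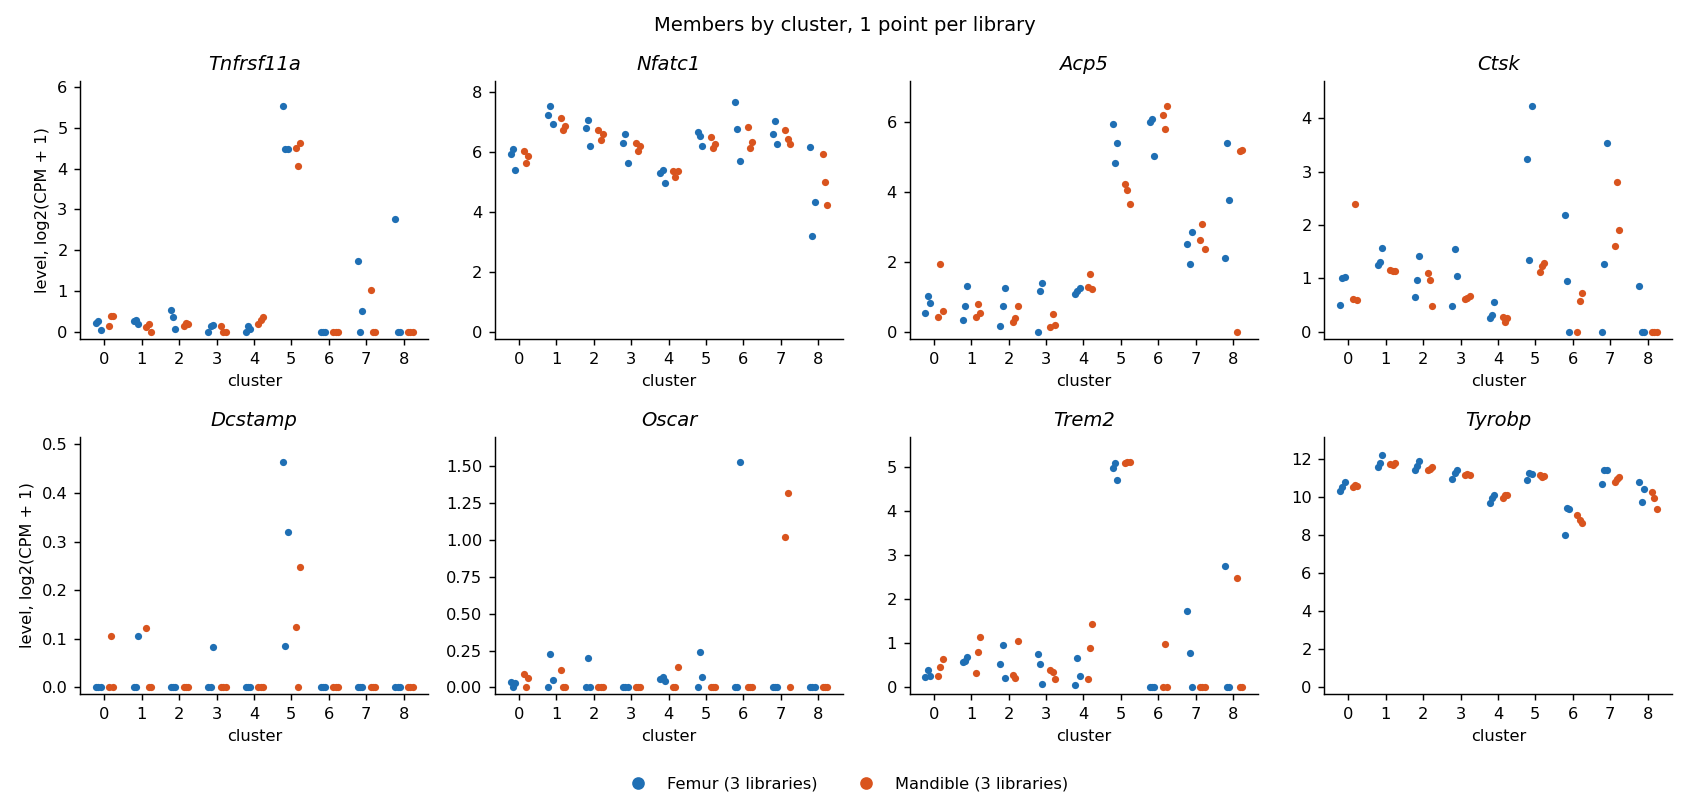
Level of each gene, as log2(CPM + 1) of the UMIs summed per library, in clusters 0 to 8, with Femur libraries in blue, Mandible libraries in orange and its own vertical scale in each panel. Tnfrsf11a and Trem2 stand high in cluster 5, Acp5 in clusters 5, 6 and 8, and Nfatc1 and Tyrobp in all 9 clusters.

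Within cluster 5 the reference labels from the ImmGen collection divided the members further. The labels were Monocytes for 3734 of the 7354 cells, Neutrophils for 2529, Macrophages for 482 and DC (dendritic cells) for 174. Tnfrsf11a averaged 148 ± 45.2 CPM in the Macrophages label, 67.8 ± 34.8 in DC, 24.7 ± 6.54 in Monocytes and 11.0 ± 1.82 in Neutrophils (SD, n = 6 libraries). The DC range, at 24.6 to 123 CPM, overlapped those of Macrophages, at 103 to 199, and Monocytes, at 17.2 to 33.6. Of the cells of cluster 5 with a Tnfrsf11a UMI, 53.9% were labelled Monocytes, 26.6% Neutrophils and 13.9% Macrophages. The Macrophages label had 7 of 7 macrophage markers, with sums of 10146 to 17517 CPM, the highest of these 4 labels (the rarer Microglia label stood at 17225 to 29822), and a median of 3824 UMIs per cell against 9329 in Monocytes.

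Trem2 followed a different order from Tnfrsf11a in the DC label. It averaged 120 ± 63.8 CPM in Macrophages, 46.7 ± 5.71 in Monocytes, 14.2 ± 3.62 in Neutrophils and 8.61 ± 5.78 in DC. The Macrophages and Monocytes ranges did not overlap, at 57.6 to 236 and 40.8 to 55.4 CPM. Those of Neutrophils and DC did, at 9.48 to 19.2 and 0 to 16.0 CPM. Acp5 averaged 202 ± 154 CPM in Macrophages, 52.9 ± 41.1 in DC, 19.98 ± 14.3 in Monocytes and 12.4 ± 3.93 in Neutrophils. Its Macrophages and DC ranges overlapped, at 86.1 to 497 and 17.9 to 121 CPM. The rarer Microglia label averaged 118 ± 104 CPM for Tnfrsf11a and 140 ± 116 for Trem2, and the rarer Stem cells label 229 ± 272 for Acp5. Tyrobp was highest in Monocytes, at 2650 ± 151 CPM. Nfatc1 lay between 79.0 and 98.2 CPM in these 4 labels, with overlapping ranges.

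**Figure D2:**
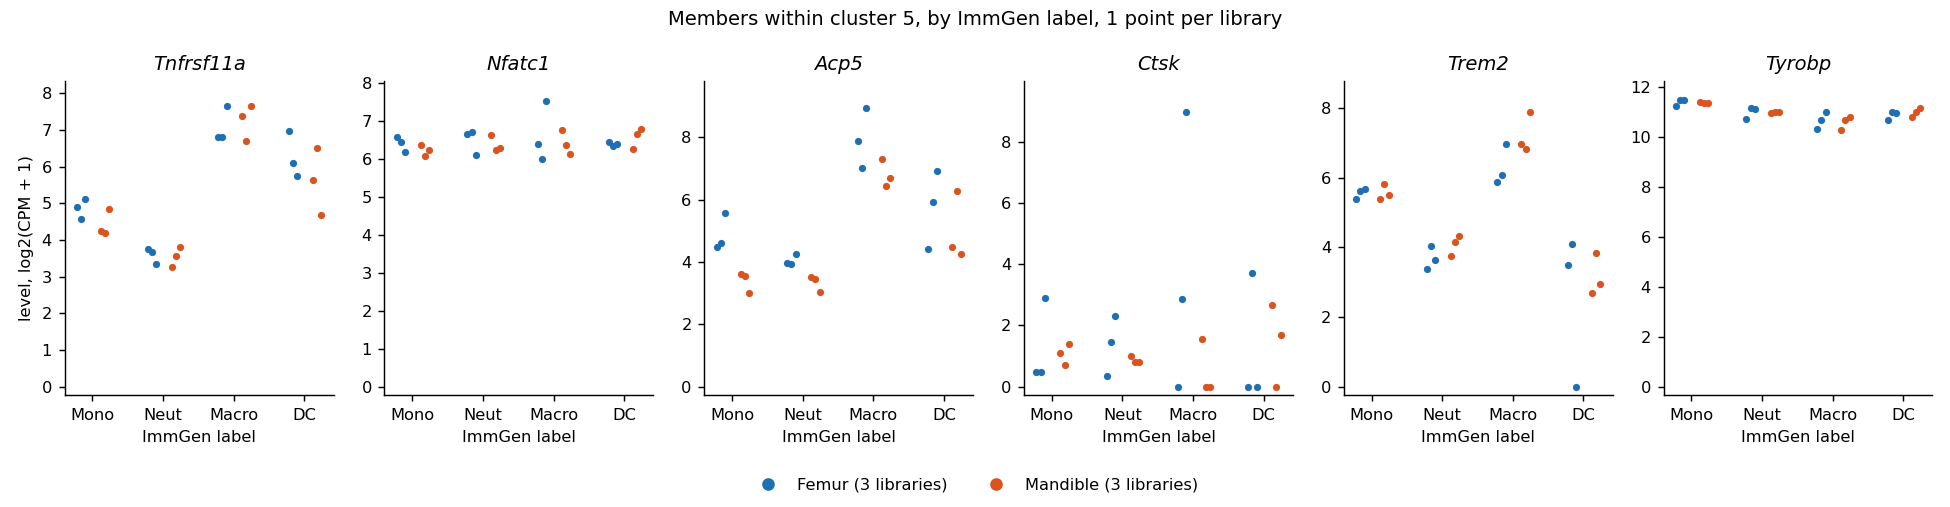
Level of 6 genes, as log2(CPM + 1) of the UMIs summed per library, in the Monocytes, Neutrophils, Macrophages and DC labels of cluster 5, with Femur libraries in blue and Mandible libraries in orange. On average Tnfrsf11a and Acp5 are highest in Macrophages, where they overlap DC, and Trem2 is lowest in DC, where it overlaps Neutrophils. For Ctsk in Macrophages 1 Femur library stands apart at 501 CPM. It is Femur replicate 3, with Macrophages-labelled cells of 201 and 26 Ctsk UMIs.

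Cells with a Tnfrsf11a UMI held Acp5 and Trem2 more often than cells without it. Among cells of like make-up, deeper ones tend to hold more UMIs of a gene. Cells of cluster 5 with 8000 to 12000 UMIs were therefore compared, a range chosen after seeing the data. In these, 18.4% ± 2.59 of 372 Tnfrsf11a-positive cells and 10.8% ± 2.02 of 1766 negative cells had Acp5, higher in the positive cells of 6 of 6 libraries. For Trem2 the shares were 34.8% ± 5.42 and 26.3% ± 1.79, also higher in 6 of 6. Csf1r, the M-CSF receptor, was found in 97.2% ± 2.04 and 87.4% ± 5.06. For Nfatc1 the shares were 53.9% ± 2.39 and 52.1% ± 4.25, higher in 4 of 6 libraries. Among Monocytes-labelled cells of that depth, Acp5 was higher in 5 of 6 libraries, at 14.2% ± 5.14 and 9.48% ± 2.55. Trem2 was also higher in 5 of 6 there, at 36.6% ± 5.30 and 31.7% ± 1.17. The Macrophages label was high in Tnfrsf11a, Acp5 and Trem2 alike, and its part in the cluster 5 shares was not tested. The same comparison was not made over all genes.

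Over the 54 sums of 6 libraries and 9 clusters, the genes whose log2(CPM + 1) was most like that of each member were listed as a description. For Tnfrsf11a these were Cmklr1 (Pearson r = 0.983), Stxbp6 (0.971) and 3110021N24Rik (0.968), and for Trem2 Stxbp6 (0.955), Sestd1 (0.954) and Aif1 (0.946). Tnfrsf11a and Trem2 correlated with each other at 0.95. Acp5 was most like Acss1 (0.951), Man1a (0.932) and Gpr155 (0.927), Nfatc1 most like Mbnl2 (0.934), Dock2 (0.917) and Serp1 (0.916), and Tyrobp most like Spi1 (0.981), Anxa2 (0.967) and Myo1f (0.954). Ctsk reached at most 0.623 (Igfbp5, then Nrp2 at 0.618 and Ibsp at 0.605), Dcstamp 0.773 (Slamf8, then Gm5086 at 0.764 and Shtn1 at 0.763) and Oscar 0.538 (Gm29570, then Odam at 0.491 and Palld at 0.44). The 54 points share libraries, depth and clusters, and the values for Dcstamp and Oscar rest on few UMIs.

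Between the skeletal sites, no member passed a false discovery rate of 0.05 in edgeR's quasi-likelihood test, fitted to all 6 libraries with the filter on low counts and no block, in any cluster, over all cells or in any tested label. In the 9 clusters 27 of the 72 possible member tests passed the filter on low counts, and 0 were called and 3 had an unadjusted p under 0.05. Of all 84533 gene tests in those fits 0.0284% were called and 8.42% had an unadjusted p under 0.05. Over all cells 6 members were tested, 0 were called and 1, Trem2, had an unadjusted p under 0.05, where 0% and 9.37% of 16381 genes did. In the 4 labels 19 tests gave 0 calls and 4 unadjusted p under 0.05, beside 0.0644% and 8.23% of 34188 tests. In cluster 5 itself 0% of 13765 genes were called and 7.11% had an unadjusted p under 0.05. Dcstamp and Oscar passed the filter in none of these fits.

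Acp5 was the member with the lowest p in cluster 5. Its level was 61.2, 27.7 and 41.4 CPM in Femur replicates 1, 2 and 3 and 18.0, 15.8 and 11.6 CPM in Mandible replicates 1, 2 and 3. All 3 Mandible libraries lay below all 3 Femur libraries, as they did for 4.29% of genes tested. The log2 fold change, Mandible minus Femur, was -1.55 ± 0.29 (SE), with an unadjusted p of 0.000708 and an adjusted p of 0.529 by edgeR. DESeq2, fitted to the same sums, called Acp5 with an adjusted p of 0.000402 at the same fold change, in a fit that called 0.544% of genes. The Acp5 share of positive cells was 17.3% ± 1.20 in Femur and 11.1% ± 1.25 in Mandible (SD, n = 3), a difference of -6.20 percentage points with a 2-sided exact permutation p of 0.1, the smallest that 3 against 3 libraries can give. Shares without overlap and lower in Mandible were found for 2.77% of genes. After each cell was thinned to 1000 UMIs the Acp5 shares were 3.93% ± 1.32 and 1.84% ± 0.136, again without overlap, and with 2 or more UMIs they were 6.51% ± 0.964 and 3.00% ± 0.462.

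The lower Acp5 level in Mandible was seen in each label of cluster 5 with enough cells. In Monocytes it was 21.1, 23.4 and 46.2 CPM in Femur and 11.2, 10.8 and 7.11 CPM in Mandible, without overlap, as for 7.18% of genes lower in Mandible in that label. The log2 fold change there was -1.67 ± 0.33, with an adjusted p of 0.0983 by edgeR and 0.000175 by DESeq2, which called 2.97% of genes in that label. With the library number as a block, on 4 libraries, it was -1.62 with an adjusted p of 2.2e-05 by edgeR. That fit called 7.08% of genes and, with so few libraries, holds little information on the spread of a single gene. In Neutrophils the log2 fold change was -0.77 ± 0.24 (unadjusted p of 0.00886, adjusted p of 0.743 by edgeR), without overlap, as for 5.02% of genes. In Macrophages it was -1.33 ± 0.41 (unadjusted p of 0.00587, adjusted p of 0.554 by edgeR), and Mandible replicate 1, at 159 CPM, lay above Femur replicate 2, at 129. The Macrophages value was -0.68 without Femur replicate 3 and -0.66 without the cells of 20 or more Ctsk UMIs described below. In DC it was -0.80 ± 0.66 with overlap. In cluster 6, the B lineage cells, Acp5 was 0.32 ± 0.28 log2 units higher in Mandible and the libraries overlapped. Whether the Acp5 difference itself varied between labels or clusters was not tested.

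Other values also differed between the sites in the same cells. The 7 dendritic cell markers summed to 1571 to 2620 CPM in Femur cluster 5 and 792 to 1359 in Mandible, and in the Monocytes label to 1759 to 2662 and 645 to 1078. The 7 macrophage markers summed in the Monocytes label to 381 to 467 CPM in Femur and 128 to 281 in Mandible, and in all of cluster 5 to 614 to 2794 and 449 to 1075, with overlap. The 5 monocyte markers went the other way, at 5424 to 6122 CPM in Femur and 6252 to 6657 in Mandible in the Monocytes label, and at 2831 to 3912 and 3817 to 4417, with overlap, in cluster 5. In the Neutrophils label the dendritic cell markers summed to 699 to 876 CPM in Femur and 414 to 506 in Mandible. The 5 erythroid markers were higher in Mandible, at 142 to 560 and 580 to 1292 CPM in cluster 5 and at 60.9 to 239 and 1088 to 1891 in the Neutrophils label, but overlapped in the Monocytes label. The 6 B cell markers summed to 24.5 to 32.2 CPM in Femur cluster 5 and 32.9 to 86.2 in Mandible, and overlapped in the Monocytes label. The lists for neutrophils, bone and stromal cells, mast cells and basophils, and T and NK cells overlapped in cluster 5. None of these markers was at 0 UMIs in those cells. Their part in the Acp5 difference was not tested.

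The Ctsk difference in CPM in cluster 5 lay largely in a handful of cells. Its level was 8.43, 1.53 and 17.6 CPM in Femur and 1.18, 1.34 and 1.44 CPM in Mandible, with 89, 25 and 354 UMIs against 13, 20 and 23. All 3 Mandible libraries lay below all 3 Femur libraries, though Femur replicate 2 was close to them. By edgeR the log2 fold change was -2.91 ± 0.81, with an unadjusted p of 0.00703 and an adjusted p of 0.606, and DESeq2 called it with an adjusted p of 0.0136. The shares of positive cells were 1.22% ± 0.532 and 1.27% ± 0.395 (exact permutation p of 0.9), with overlap. After thinning they were 0.336% ± 0.0881 and 0.161% ± 0.0517, and the shares of cells with 2 or more Ctsk UMIs were 0.389% ± 0.0980 and 0.150% ± 0.0624, in both cases without overlap and lower in Mandible, as for 4.05% and 3.35% of genes. When the 6 cells of cluster 5 with 20 or more Ctsk UMIs were left out, a limit set after seeing the data, the levels became 1.24, 1.53 and 1.10 CPM in Femur, and the log2 fold change -0.01 ± 0.32. All 6 were Femur cells picked by their Ctsk UMIs, so leaving them out could only lower the Femur Ctsk levels. The 6 cells also count in the Femur shares above, which were not computed without them. They were 5 of the 1443 cluster 5 cells of Femur replicate 3 and 1 of the 1063 of Femur replicate 1. The shares with 2 or more Ctsk UMIs in these libraries were 0.416% and 0.470%. They were 0.280% in Femur replicate 2 and 0.0855% to 0.210% in Mandible. Without the 6 cells the Acp5 log2 fold change was -1.20 ± 0.27 (adjusted p of 0.594 by edgeR), and the Acp5 levels of 51.4, 27.7 and 24.6 CPM in Femur still lay above those of Mandible.

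Tnfrsf11a was 45.0, 21.5 and 21.3 CPM in Femur cluster 5 and 21.6, 15.6 and 23.7 in Mandible. Only Femur replicate 1, the female library, stood apart, and the log2 fold change of -0.54 ± 0.27 had an adjusted p of 0.727 by edgeR. Without that library it was -0.18. The Macrophages label held 15.7% of the cluster 5 cells of Femur replicate 1 and 3.53% to 7.56% of those of the other libraries, and the part of these cells in its level was not tested. In the Monocytes label Tnfrsf11a was 28.9, 22.7 and 33.6 CPM in Femur and 17.9, 17.2 and 28.0 in Mandible, with overlap. The log2 fold change there was -0.46 ± 0.22 (adjusted p of 0.408 by edgeR), -0.47 without Femur replicate 1, -0.29 without Femur replicate 3 and -0.69 without Mandible replicate 3. With the library number as a block, on 4 libraries, it was -0.68 with an adjusted p of 0.0253 by edgeR. That fit called 7.08% of genes and, with so few libraries, holds little information on the spread of a single gene. In cluster 5 the Tnfrsf11a share of positive cells was 16.7% ± 1.73 in Femur and 15.3% ± 3.35 in Mandible, with overlap. The difference of -1.44 percentage points was 0.295 without Mandible replicate 2 and -3.04 without Mandible replicate 3. Nfatc1 differed by -0.21 ± 0.13 and Tyrobp by -0.06 ± 0.19 log2 units, both with overlapping libraries and adjusted p of 0.751 and 0.951 by edgeR.

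Over cluster 5 as a whole, Trem2 lay in the other direction from Acp5. In cluster 5 it was 30.5, 33.2 and 25.2 CPM in Femur and 33.5, 33.8 and 33.8 CPM in Mandible. The libraries did not overlap, as for 7.32% of genes in that direction, but the log2 fold change was 0.15 ± 0.12 with an adjusted p of 0.801 by edgeR. Its share of positive cells was 20.2% ± 1.56 in Femur and 24.4% ± 0.888 in Mandible, without overlap (exact permutation p of 0.1), where 8.65% of genes had higher shares without overlap. After thinning the shares were 3.21% ± 0.302 and 3.84% ± 0.279, without overlap as for 9.26% of genes, but the shares with 2 or more Trem2 UMIs, 7.42% ± 0.962 and 8.57% ± 1.21, overlapped. The Neutrophils label held 316 of 1063, 473 of 1428 and 717 of 1443 cluster 5 cells in Femur replicates 1, 2 and 3. In Mandible it held 230 of 952, 399 of 1298 and 394 of 1170, and its part in the Trem2 level was not tested. Within the Monocytes label Trem2 differed by -0.02 ± 0.16 log2 units, with an adjusted p of 0.975 by edgeR. Its shares overlapped there, at 27.8% ± 1.33 and 29.3% ± 2.67. In the Macrophages label they were 21.6% ± 1.16 and 35.2% ± 6.18 (exact permutation p of 0.1), without overlap, as for 3.3% of genes higher in Mandible in that label. The dendritic cell markers of the Macrophages label summed to 4846 to 6583 CPM in Femur and 2384 to 4266 in Mandible, and their part in the Trem2 difference was not tested. The Macrophages levels were 57.6, 66.7 and 124 CPM in Femur and 126, 112 and 236 in Mandible, with overlap. The log2 fold change was 0.91 ± 0.34 (unadjusted p of 0.0172, adjusted p of 0.637 by edgeR), 0.50 without Mandible replicate 3 and 0.32 with the library number as a block. The median depth of Macrophages-labelled cells was 2811 to 6495 UMIs in Femur and 3363 to 4333 in Mandible. Over all cells Trem2 was 0.71 ± 0.29 log2 units higher in Mandible (unadjusted p of 0.0401, adjusted p of 0.499 by edgeR), with overlapping libraries. Cluster 5 held 10.4%, 12.3% and 6.33% of the cells of the Femur libraries and 11.1%, 14.8% and 15.1% of those of Mandible, and the monocyte markers over all cells summed to 959 to 1189 and 1295 to 1414 CPM. Their part in that Trem2 difference was not tested. In cluster 4, where few cells had it, the difference was 1.90 ± 0.83 (unadjusted p of 0.0478, adjusted p of 0.378 by edgeR) on means of 0.271 and 0.9 CPM.

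Dcstamp had 4, 1 and 5 UMIs in Femur cluster 5 and 1, 0 and 3 in Mandible, and Oscar 0, 3 and 1 against 0, 0 and 0. A difference between sites was not detectable at this depth. For Oscar in Mandible, the count of 0 limits the share of cluster 5 cells with a UMI to 0.0877%, and sets no limit on the share expressing it. Fitted with no filter on low counts, the edgeR log2 fold changes were -1.19 ± 1.09 for Dcstamp and -3.46 ± 1.90 for Oscar, and the latter depends on the prior count since Mandible had 0 UMIs.

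**Figure D3:**
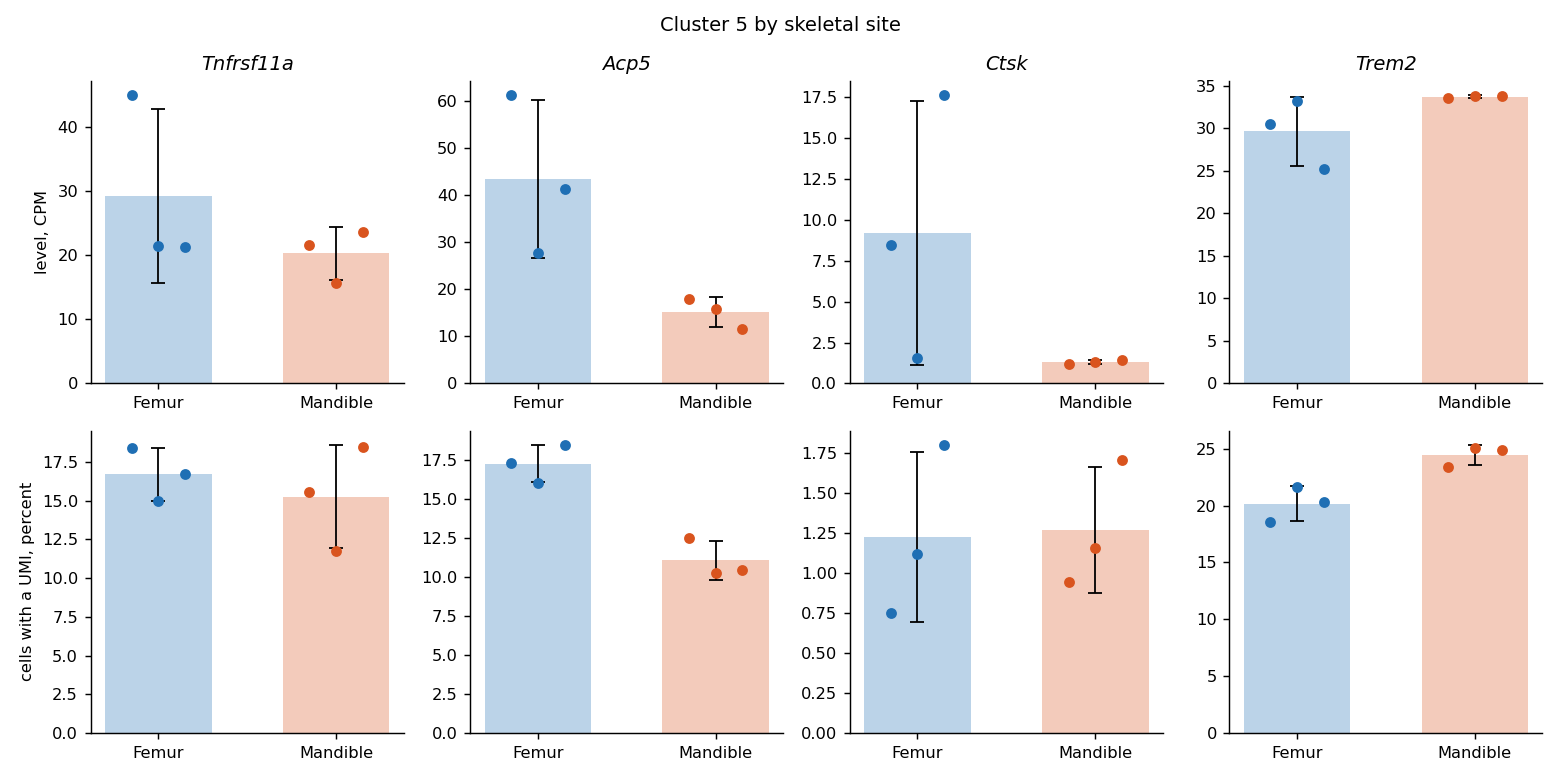
Level in CPM (top row) and percent of cells with a UMI (bottom row) of 4 genes in cluster 5, with the mean as a bar, the SD over 3 libraries as a line and each library as a point. Acp5 is lower in all 3 Mandible libraries on both scales, Ctsk is lower in CPM but not in its share, and Trem2 is slightly higher.

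The Ctsk UMIs were concentrated in few barcodes. Among the kept cells 7 held 26 to 201 Ctsk UMIs each, whereas no other kept cell held more than 9. These 7 cells carried 499 of the 1145 Ctsk UMIs (43.6%) and 509 of the 3635 Acp5 UMIs (14.0%). Femur replicate 3 held 5 of them, Femur replicate 1 held 1 and Mandible replicate 2 held 1. The cell of Mandible replicate 2 lay in cluster 0 with 2802 UMIs of S100a8, a neutrophil gene, and the other 6 lay in cluster 5 under the labels Macrophages, Stem cells, Neutrophils and Monocytes. Of those 6, the Neutrophils-labelled cell of Femur replicate 3 held 1383 S100a8 UMIs and the rest held 18 to 77. Each of the 7 had 3 to 20 Tnfrsf11a UMIs, 45 to 114 Acp5 UMIs and 11 to 30 UMIs of Atp6v0d2, a proton pump subunit required for osteoclast fusion. They held 19692 to 38080 UMIs in all, and no doublet caller was run.

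Far more of these transcripts lay in barcodes that the authors had removed. Of the 4315 removed barcodes, 5 held 471 to 1949 Ctsk UMIs each, 4 from Femur replicate 3 and 1 from Mandible replicate 1, and all 5 had been removed for having 6000 or more genes. Together these 5 barcodes held 5561 Ctsk UMIs, 4.86 times those of all kept cells, and 5765 Acp5 UMIs, 1.59 times. They also held 74 Dcstamp and 93 Oscar UMIs, against 20 and 26 in all kept cells, and each had UMIs of both genes. Ctsk was the gene with the most UMIs in 1 of them and among the first 6 in the rest. Nfatc1 stood at 759 CPM over the 5 barcodes against 81.3 in pooled cluster 5, and Tnfrsf11a at 282 against 23.7. Trem2 stood at 72.5 CPM against 31.3, from 19 UMIs in the 5 barcodes, of which 0 were in 3 of them. The neutrophil gene S100a8 had 1879 UMIs in the Mandible barcode and 99 to 401 in the 4 Femur barcodes.

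Genes of the resorption machinery were high in the 5 removed barcodes. Of 15 listed, 14 had a higher CPM in the 5 removed barcodes than in pooled cluster 5, as did 38 of all 101 pathway genes and 23.7% of the 23171 genes with a UMI in cluster 5 (38.2% of the 8138 genes at 10 CPM or more). In the 7 kept cells 8 of the 15 were higher, beside 24.5% of all genes and 43.0% of those at 10 CPM or more. That share lay above the former background and nearer the latter. The 14 included Mmp9, a matrix protease, at 6304 CPM against 461 and Tcirg1, a proton pump subunit, at 725 against 61.7. Itgb3, a chain of the vitronectin receptor, stood at 717 CPM against 15.3, carried by 51, 91 and 42 UMIs in 3 of the 5 barcodes, whereas the other two, 1 of them the Mandible barcode, had 1 and 3. Of 10 precursor surface genes, 0 were higher, and Ccr2, the chemokine receptor of monocytes, had 0 UMIs against 721 CPM in cluster 5. The barcodes were picked by their Ctsk UMIs, so these values carry no test. Femur replicate 3 gave 9 of the 14 barcodes with 20 or more Ctsk UMIs from its 23233 barcodes, and the other 5 libraries gave 1 each from 8184 to 12587 barcodes.

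**Figure D4:**
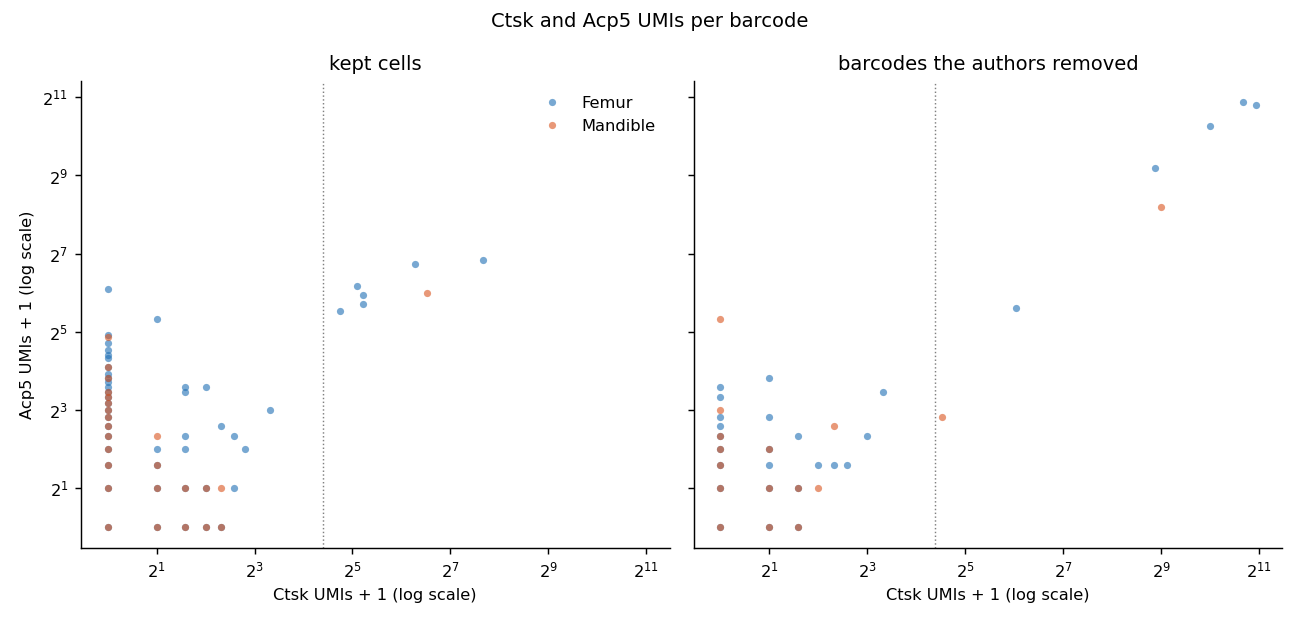
Ctsk and Acp5 UMIs per barcode on log scales, with 1 added to each count, for kept cells (left) and for barcodes the authors removed (right). Each point stands for 1 or more barcodes with that pair of counts, the dotted line marks 20 Ctsk UMIs, and the 5 removed barcodes at the upper right hold 471 to 1949 Ctsk UMIs.

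Of 101 other genes of the osteoclast pathway, 97 passed the filter in cluster 5 and 0 were called by edgeR. Unadjusted p under 0.05 was found for 5, all lower in Mandible, which is 5.15% of the 97 against 7.11% of all genes. The fold change was negative for 78 of the 97 and for 7208 of the 13765 genes, with medians of -0.09 and -0.01 log2 units. By group, the negative values were 17 of 19 RANK adaptors and signalling genes, 8 of 9 genes of the M-CSF receptor axis, 12 of 12 ITAM genes, 10 of 14 activating and 5 of 9 repressing transcription factors, 8 of 10 fusion genes, 11 of 14 resorption genes and 7 of 10 precursor surface genes. Sets of genes in the same libraries are not independent, and these counts carry no test.

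The lowest p among the genes lower in Mandible belonged to Sirpb1a, an activating receptor that pairs with the Tyrobp product. It stood at 69.8, 58.1 and 56.3 CPM in Femur and 42.6, 19.5 and 28.8 in Mandible, a log2 fold change of -1.06 ± 0.25 (adjusted p of 0.594 by edgeR and 0.0257 by DESeq2). Near-identical copies in its family can share reads, so its count is uncertain. Mmp14, a membrane matrix protease, differed by -1.21 ± 0.30 (adjusted p of 0.594 by edgeR) and Atp6v0d2 by -2.44 ± 0.79 (adjusted p of 0.625 by edgeR). Atp6v0d2 was at 12.6, 1.47 and 7.36 CPM in Femur and 2.17, 1.47 and 0.437 in Mandible, with overlap, and its log2 fold change was -1.74 without the cells of 20 or more Ctsk UMIs. Among genes higher in Mandible, Ly6c2, a surface marker of inflammatory monocytes, differed by 0.35 ± 0.15, Id1, a repressor of differentiation factors, by 0.59 ± 0.29 and Cd14, a lipopolysaccharide co-receptor, by 0.39 ± 0.23, with adjusted p of 0.709 to 0.749 by edgeR. The differences were -0.31 ± 0.21 for Csf1r, -0.08 ± 0.17 for Itgam and -0.03 ± 0.19 for Fcer1g, with adjusted p of 0.771 to 0.983 by edgeR.

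By cell cycle call in cluster 5, Tyrobp was highest in cells called G1, whereas Tnfrsf11a overlapped between calls. Tnfrsf11a was 25.4 ± 6.75 CPM in 6080 cells called G1, 27.6 ± 32.9 in 515 called S and 27.4 ± 32.0 in 759 called G2M (SD, n = 6). Trem2 was 34.0 ± 4.46, 23.4 ± 9.33 and 23.5 ± 9.31 CPM, and Tyrobp 2413 ± 221, 1583 ± 132 and 1680 ± 210. Tyrobp ranges of G1, at 1994 to 2588 CPM, and of S, at 1349 to 1713, did not overlap. Cells called S and G2M were deeper, with medians of 14906 and 17236 UMIs against 9495, and phase calls alone do not show that a cell was cycling.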

How the data were processed

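Single-cell 3' libraries of CD11b+ marrow cells were deposited as UMI counts per gene and barcode for 6 libraries. Per the labels and the study's methods, the authors aligned reads to mm10 with Cell Ranger (7.0.1 in the processing notes, 7.1.0 in the matrix header), kept cells with over 600 and under 6000 genes and a mitochondrial percent of at most 20, and integrated, clustered and labelled them in Seurat under R 4.1.0. The deposited metadata gave the mitochondrial percent, cluster, label and phase used here. A deposited marker table holds the authors' tests of each cluster over cells and was not used.

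Counts were summed per library and cluster or label (at least 10 cells in each library) and fitted for Mandible against Femur with edgeR 4.0.16 (R 4.3.3) using filterByExpr, TMM and the quasi-likelihood test, adjusted over all genes tested. The SE of an edgeR fold change is approximate, taken as its absolute value over the square root of the quasi-likelihood F. The study tested cells, which are not replicates. CPM divides each gene's UMIs by all UMIs of the same sum, on the usual scale. Shares of cells with a UMI were compared by 2-sided exact permutation over 20 assignments. No doublet caller was run, and leaving out the deepest 5% of cells was an alternative. On simulated counts with 200 changed genes for cluster 5 (13525 genes tested), 45.2% of 2-fold and 79.4% of 4-fold changes were recovered. Adjusted p depends on how many genes change, and the real cluster 5 fit called 0 of 13765. Recovery of a lone changed gene was not simulated and can be lower. The members and lists were chosen with earlier results of these data known. Named were all members, the pathway genes with the lowest p in each direction (3 each), Csf1r, Itgam and Fcer1g, and the 3 genes most like each member with at least 10 CPM in a cluster. Other genes were named after their values were seen. Alternatives were DESeq2 1.42.0, RLE factors, no filter, replicate blocks, each library left out and thinning to 1000 UMIs. Intervals and limits of a count of 0 (3 counts) cover counting error only. Sequences are from RefSeq on GRCm38.p6.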

Additional observations from a re-analysis of the deposited data

Results flagged for a closer look

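These results lie in barcodes that no comparison between sites used. The 4315 barcodes that the authors removed, all but 1 of which fail a stated quality limit, held 5752 Ctsk UMIs and 6173 Acp5 UMIs, more than all kept cells together, which held 1145 and 3635. They also held 76 Dcstamp UMIs against 20 and 99 Oscar UMIs against 26. The 5 barcodes with 471 or more Ctsk UMIs carried 96.7% of these Ctsk UMIs, 93.4% of Acp5, 97.4% of Dcstamp and 93.9% of Oscar.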

How the results depend on the processing

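Of 78 alternative values of the cluster 5 fold changes, 12 moved by over 1.5 times or reversed: 5 of Tyrobp, 3 of Ctsk, 2 of Tnfrsf11a and 1 each of Nfatc1 and Trem2, but 0 of Acp5. Ctsk went from -2.91 to -1.81 without Femur replicate 3, -1.51 without the deepest 5% of cells and -0.01 without the cells of 20 or more Ctsk UMIs. Tnfrsf11a went from -0.54 to -0.18 without Femur replicate 1. Acp5 ranged from -1.79 to -1.10, with adjusted p from 0.000402 (DESeq2) to 1.00 (edgeR). Tyrobp, at -0.06, ranged from -0.21 to 0.077 when each library was left out, and was 0.077 without Femur replicate 3. The number of members called in the 9 clusters went from 0 to 2 with DESeq2 (Acp5 and Ctsk in cluster 5), beside 0.946% of all genes. In the labels it went from 0 to 1 with DESeq2 (Acp5 in Monocytes), beside 1.25%. With no filter on low counts it went to 3 in the labels (Acp5 in Monocytes and Macrophages, Ctsk in Macrophages), beside 1.37%. The Macrophages sum of Femur replicate 3 included 1 cell with 201 Ctsk and 114 Acp5 UMIs and 1 with 26 and 45. Leaving out each library gave 0 called members in the clusters and over all cells and 0 to 1 in the labels. The 1 was Acp5 in Monocytes without Mandible replicate 1 (adjusted p of 0.0265 by edgeR), where 4.98% of genes were called. DESeq2 called 1 of the pathway genes, Sirpb1a, beside 0.544% of all genes. Members whose cluster 5 shares did not overlap numbered 2 (Acp5 and Trem2) beside 11.4% of all genes in either direction, 3 after thinning (with Ctsk) beside 13.3%, 2 with 2 or more UMIs (Acp5 and Ctsk) beside 9.18%, 1 in Monocytes-labelled cells (Acp5) beside 16.0% and 2 to 3 on leaving out each library, beside 15.4% to 33.8%. The cause of these changes was not tested.

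Groups share replicate numbers in the titles, and same-numbered libraries deviated together (every correlation over 0.1) in 1 of 14 cell sets, the DC label. The correlations ran from -0.04 to 0.61 for number 1, -0.40 to 0.33 for number 2 and -0.20 to 0.18 for number 3, and the numbers were not taken as pairs. With that replicate block Acp5 was -1.51 and Ctsk -2.39 in cluster 5, with 0 calls. A library number, whose meaning the labels do not give, is shared by 2 pairs of male libraries, and both correlations were over 0.1 in 9 of 14 cell sets (0.34 and 0.39 in Monocytes). With it as a replicate block, fitted on 4 libraries, Acp5 in cluster 5 was -1.10. That block called 2 members in the labels, Acp5 (adjusted p of 2.2e-05 by edgeR) and Tnfrsf11a (-0.68, adjusted p of 0.0253) in Monocytes, where it called 7.08% of genes, and 1 in the clusters, Acp5 in cluster 3, where it called 5.28%. With so few libraries, such a fit holds little information on the spread of a single gene. Trem2 in Macrophages was 0.32 with that block. Depth limits Dcstamp and Oscar, for which the main test gave no value.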
